A study of Mus musculus with 15 samples.

Results

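The mitochondrial genome of the mouse carries 37 genes, and all 37 were listed in the count table from this study of inguinal white adipose tissue, the subcutaneous fat of the groin. They were taken as every row whose symbol begins with mt- on chromosome MT, 37 of 37991 genes in all. They comprise 13 messenger RNAs, 2 ribosomal RNAs and 22 transfer RNAs. No symbol beginning with mt- lay on another chromosome, and no gene of chromosome MT had another kind of symbol.

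Each of 3 groups held 5 C57BL/6 mice aged 8 weeks, and whole tissue was sequenced. The dKO mice (AdipoqCre LKB1 F/F; HDAC4 F/F) had floxed alleles of both genes and Adipoq-Cre. The KO mice (AdipoqCre LKB1 F/F) had Adipoq-Cre and floxed LKB1. The WT mice (LKB1 F/F) had the floxed LKB1 alleles, which all 3 groups share, and no Cre is named for them. Adipoq-Cre is driven by the adiponectin promoter and is active in adipocytes, so that stromal, vascular and immune cells of the tissue keep their alleles. LKB1, encoded by Stk11, is a protein kinase upstream of AMPK, and HDAC4 belongs to the class IIa histone deacetylases.

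The mitochondrial genome is transcribed from both strands into long precursors. Transfer RNAs sit between most of the other genes and mark where the precursors are cut. The messengers encode core subunits of complexes I, III, IV and V of the respiratory chain, which are completed by many nuclear-encoded subunits, and the ribosomal RNAs form the organelle's own ribosome. Brown and beige adipocytes are rich in mitochondria, and the series title names beige adipocytes.

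Several mitochondrial genes share bases with a neighbour or letters with a nuclear copy, which bears on how their counts can be read. The sequences of 4 genes are shown because their counts were at an extreme or because they end inside the next gene. They come from the GENCODE M21 transcripts of build GRCm38, matched by gene identifier, and the 37 genes have there the same start, end and length as in the deposited table, whose build is mm9 per the submitters' processing notes. Sequences are written 5′ to 3′ on the gene's own strand, and capitals mark the bases that also belong to the following gene on the same strand. mt-Nd4l (MT:9877-10173, plus strand), a complex I subunit, ends with 7 bases of mt-Nd4, another subunit of that complex.
mt-Nd4l: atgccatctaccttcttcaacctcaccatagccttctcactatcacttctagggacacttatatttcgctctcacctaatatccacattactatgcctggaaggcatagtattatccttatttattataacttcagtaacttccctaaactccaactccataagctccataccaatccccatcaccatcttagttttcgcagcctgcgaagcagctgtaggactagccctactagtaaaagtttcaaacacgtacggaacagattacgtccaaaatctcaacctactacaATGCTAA
mt-Atp8 (MT:7766-7969, plus strand), a subunit of the ATP synthase, ends with 43 bases of mt-Atp6, a second subunit of that enzyme.
mt-Atp8: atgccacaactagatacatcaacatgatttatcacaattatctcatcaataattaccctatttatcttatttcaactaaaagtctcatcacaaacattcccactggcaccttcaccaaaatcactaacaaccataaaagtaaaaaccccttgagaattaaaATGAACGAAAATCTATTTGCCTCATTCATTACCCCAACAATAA
mt-Tp (MT:15356-15422, minus strand), the proline transfer RNA, was the one transfer RNA with counts in every library. It lies next to mt-Tt (MT:15289-15355, plus strand), the threonine transfer RNA, which had 0 counts in every library.
mt-Tp: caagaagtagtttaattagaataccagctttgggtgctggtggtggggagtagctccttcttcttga
mt-Tt: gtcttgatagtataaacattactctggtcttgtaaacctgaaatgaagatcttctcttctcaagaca
mt-Nd5 and mt-Nd6, both of complex I, lie on opposite strands and share 14 bases at their ends (MT:13552-13565), shown on the plus strand, all in capitals because all are shared.
mt-Nd5 and mt-Nd6 overlap: TTAATCTCGAGTAA
The strand setting of the counting and the handling of reads that fit several places are unknown from the labels and notes, so reads from shared bases cannot be assigned to one of the 2 genes.

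Libraries held 1564004 to 21570688 counts in all, of which mt-Rnr1 and mt-Rnr2 took 33.5 to 50.0%. Levels are therefore given as counts per 1000000 (CPM) of the counts outside these 2 ribosomal RNAs (911371 to 12689115 per library), scaled by TMM. On this scale the ribosomal RNAs are measured against all other RNA, and their CPM can add up to more than that. Stk11 averaged 32.8 ± 4.51 CPM in dKO, 30.1 ± 6.87 CPM in KO and 50.2 ± 10.3 CPM in WT (SD, n = 5 each), and the edgeR quasi-likelihood test over 12124 genes did not call it for KO against WT (adjusted p = 0.1001). Hdac4 counts per gene do not resolve the deleted exons and do not check the dKO label. Adipocyte markers fitted the labelled tissue: all 9 were detected in every library and summed to 8862 to 14633 CPM in dKO, 9143 to 11409 CPM in KO and 8446 to 13115 CPM in WT. The libraries of the dKO mice labelled 1753 and 1753-2 (dKO replicates 4 and 5) were the most alike pair within any group, with a chi-square per degree of freedom of 2.61, where no difference beyond sampling noise would give about 1. They were kept as 2 mice, since the series states 5 per group. Barcodes 12 to 16 were found among the dKO libraries alone, so barcode and dKO genotype cannot be told apart. Nothing beyond the mouse labels says how the samples were collected, so p-values are relative to the spread between these samples. If 1753 and 1753-2 are 1 mouse, dKO holds fewer than 5 independent mice. The p-values of the main fit do not allow for that.

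Of the 37 mitochondrial genes, 15 passed the filter on low counts and were tested: 12 messengers, both ribosomal RNAs and mt-Tp. The other 22 were mt-Nd4l and 21 transfer RNAs. None of the 15 was called at an adjusted p under 0.05 by edgeR in any of the 3 comparisons. At an unadjusted p under 0.05 there were 7 for KO against WT, 8 for dKO against KO and 1 for dKO against WT, where 9.21%, 6.49% and 14.4% of all genes tested were. Over all 12124 genes, 0.569% were called for KO against WT, 0.0660% for dKO against KO and 0.544% for dKO against WT. The libraries of the groups overlapped for each of the 15 genes in each comparison, while 2.99%, 1.15% and 2.07% of all genes showed no overlap in the same order of comparisons. DESeq2 called 3 of the 15 for KO against WT, 1 for dKO against KO and 0 for dKO against WT, where, of the genes to which it gave an adjusted p, it called 175 of 11639 for KO against WT, 0.306% for dKO against KO and 1.93% for dKO against WT. Limma's voom called 1, 0 and 0, and 2.25%, 0.0742% and 0.231% of all genes.

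The 2 ribosomal RNAs had the highest levels per length, and neither was called by edgeR in any comparison of the genotypes. mt-Rnr1 (MT:70-1024), the RNA of the small ribosomal subunit, averaged 217383 CPM per kilobase in dKO, 265258 in KO and 238287 in WT. mt-Rnr2 (MT:1094-2675), the RNA of the large subunit, averaged 278358 CPM per kilobase in dKO, 335612 in KO and 297231 in WT. They are the most counted genes of the whole table.

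mt-Rnr1 was at 147840, 273900, 247445, 172117 and 196701 CPM in the dKO libraries, at 243505, 231137, 327962, 195630 and 268375 CPM in the KO libraries and at 203899, 220044, 249795, 168872 and 295209 CPM in the WT libraries. The groups overlapped widely. Its log2 fold change was 0.15 (SE 0.22) for KO against WT, -0.29 (SE 0.22) for dKO against KO and -0.13 (SE 0.22) for dKO against WT, with edgeR adjusted p of 0.897, 0.850 and 0.813. mt-Rnr2 was at 340208, 597432, 431538, 384066 and 448565 CPM in dKO, at 468660, 442347, 818598, 407145 and 517941 CPM in KO and at 408514, 523246, 528004, 339465 and 551867 CPM in WT. KO replicate 3 lay above every other library, and the other KO libraries lay within the range of WT. Its log2 fold changes were 0.18 (SE 0.23), -0.27 (SE 0.23) and -0.09 (SE 0.23) in the same order (edgeR adjusted p = 0.892, 0.861 and 0.877), and without KO replicate 3 the value for KO against WT was -0.03.

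The ratio of mt-Rnr1 to mt-Rnr2 counts, which come from one precursor, was compared on the log2 scale by exact two-sided permutation. It averaged -1.10 ± 0.17 in dKO, -1.04 ± 0.16 in KO and -1.05 ± 0.13 in WT (SD, n = 5 each). By the exact permutation the differences of 0.0071 for KO against WT (p = 0.913), -0.05 for dKO against KO (p = 0.611) and -0.05 for dKO against WT (p = 0.627) were within the spread of the libraries. All had an adjusted p of 0.913 over the 6 ratio tests made, in each of which the smallest p possible was 0.00794.

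The 13 messengers together were at 54616, 102335, 77143, 88103 and 92193 CPM in the dKO libraries, at 116040, 104730, 184412, 80688 and 128666 CPM in the KO libraries and at 76965, 101782, 96697, 61516 and 117164 CPM in the WT libraries. In KO, replicate 3 was highest and replicate 4 lowest, and 4 of the 5 KO libraries lay above every dKO library. KO overlapped with WT. The means were 82878 ± 18196 CPM in dKO, 122907 ± 38652 CPM in KO and 90825 ± 21791 CPM in WT (SD, n = 5 each).

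Ribosomal RNA counts per messenger count were 8.94, 8.51, 8.80, 6.31 and 6.999 in the dKO libraries, 6.14, 6.43, 6.22, 7.47 and 6.11 in the KO libraries and 7.96, 7.30, 8.04, 8.26 and 7.23 in the WT libraries. In KO, 4 of 5 libraries lay below every WT library and replicate 4 lay inside the WT range. In dKO, replicates 1 to 3 lay above every WT library, while replicates 4 and 5, the libraries labelled 1753 and 1753-2, lay below every WT library. No test was made of this ratio.

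**Figure D1:**
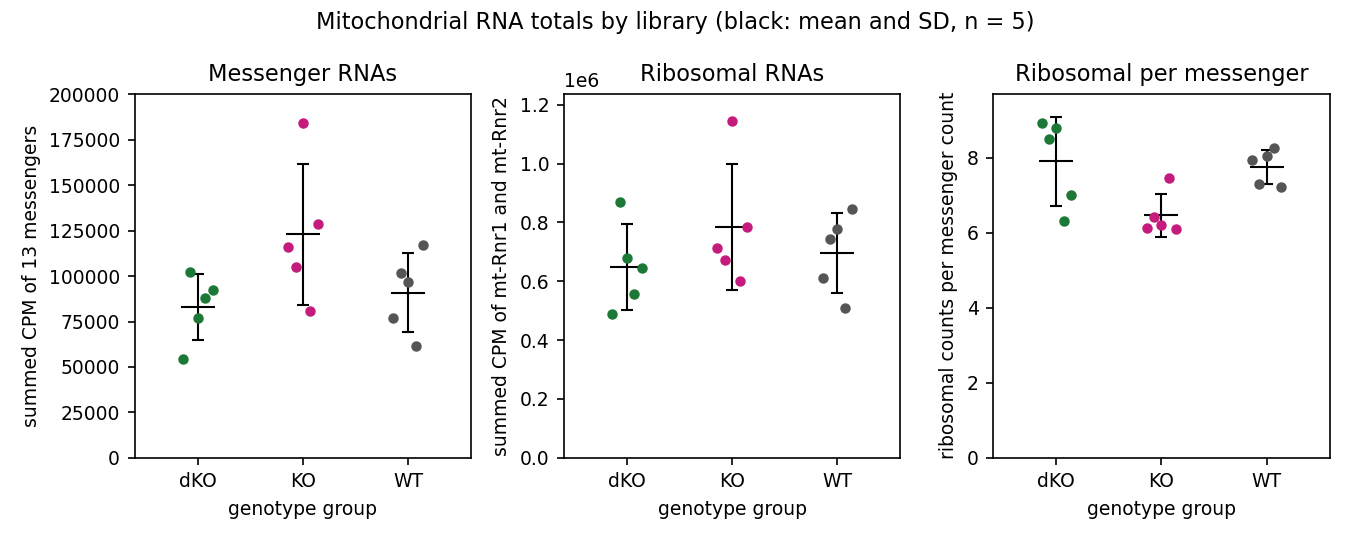
Summed CPM of the 13 messengers, summed CPM of mt-Rnr1 and mt-Rnr2, and ribosomal RNA counts per messenger count, by genotype group. Each point is 1 library, and the black marks give the mean and SD of 5 libraries. KO replicate 3 is the highest point for messengers, at 184412 CPM, and for ribosomal RNA, while 4 of 5 KO points lie below every WT point in the ratio.

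By level per length the messengers spanned a wide range. mt-Co1, the catalytic subunit of complex IV (cytochrome c oxidase), was highest, at 21244 ± 4068 CPM per kilobase in dKO, 28332 ± 6340 in KO and 23941 ± 5384 in WT (SD, n = 5 each). Averaged over all 15 libraries it was at 24505 CPM per kilobase, followed by mt-Cytb (10618), mt-Nd4 (9923) and mt-Nd1 (8764), but the order of these 3 was not the same in each group, and they differed by less than their spread in dKO and KO. In dKO, mt-Nd1 (8846) stood before mt-Cytb (8261) and mt-Nd4 (7740), in KO mt-Nd4 (12791) before mt-Cytb (12286) and mt-Nd1 (11651), and in WT mt-Cytb (11309) before mt-Nd4 (9238) and mt-Nd1 (5794). The lowest counted in every library was mt-Atp8, at 992 CPM per kilobase. mt-Nd4l, the lowest of the 13, had 0 to 4 counts per library, 10 over all 15 libraries, while mt-Nd4, which it overlaps, had 10486 to 191947 counts per library. Among all genes by mean count level, 6 of the 10 highest and 10 of the 20 highest were mitochondrial.

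**Figure D2:**
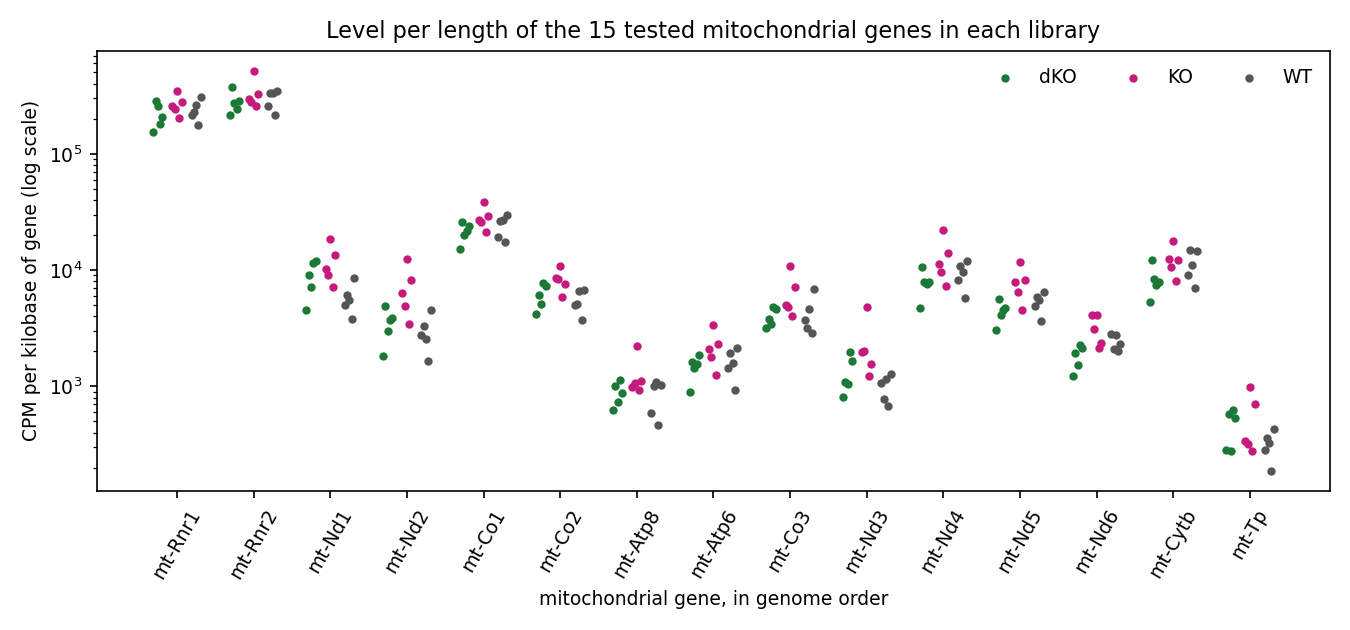
CPM per kilobase of gene (log scale) of the 15 tested mitochondrial genes, in genome order. Each point is 1 library. The ribosomal RNAs lie above the messengers, mt-Co1 is the highest messenger, and the points of the groups overlap for each gene.

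For KO against WT the question is what targeting LKB1 in adipocytes does to these RNAs. KO and dKO carry Adipoq-Cre and no Cre is named for WT. In comparisons with WT, Cre and the targeted alleles therefore cannot be told apart. All 12 tested messengers had a positive log2 fold change, with a median of 0.57 against -0.02 over all genes tested, and none was called by edgeR. The largest were those of mt-Nd2, mt-Nd3 and mt-Nd1, all subunits of complex I, the NADH dehydrogenase. The smallest was that of mt-Cytb, the cytochrome b of complex III, at 0.12. Brown and beige adipocyte markers, summed, were at 828 to 2127 CPM in KO and 84.1 to 210 CPM in WT, and summed skeletal muscle markers were highest in KO replicate 3, at 6470 CPM.

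mt-Nd2 (MT:3914-4951), which had the smallest p of the 15 in this comparison, was at 6619, 5127, 12847, 3593 and 8509 CPM in the KO libraries and at 2872, 3443, 2651, 1705 and 4735 CPM in the WT libraries. KO replicates 1, 2, 3 and 5 lay above every WT library, and KO replicate 4 lay inside the WT range. The log2 fold change of 1.25 (SE 0.33), a 2.38-fold higher level in KO, missed the threshold (edgeR adjusted p = 0.131; among the alternatives from 0.0136 with DESeq2 to 0.364 with the muscle covariate). mt-Nd1 (MT:2751-3707) was at 9742, 8718, 17588, 6856 and 12843 CPM in KO and at 4781, 5890, 5308, 3633 and 8111 CPM in WT. Again 4 of 5 KO libraries exceeded every WT library. Its log2 fold change was 1.01 (SE 0.29, edgeR adjusted p = 0.162; over the alternatives 0.0314 to 0.408), and it passed with DESeq2 (0.0314), with voom (0.0498) and with the 2 groups fitted alone (0.0439). mt-Nd3 (MT:9459-9806) was at 683, 704, 1664, 423 and 542 CPM in KO and at 375, 271, 405, 236 and 444 CPM in WT. KO replicate 3 stood far above the other KO libraries, and KO replicate 4 overlapped with WT. The log2 fold change of mt-Nd3 was 1.21 (SE 0.34, edgeR adjusted p = 0.156; over the alternatives 0.0203 with DESeq2 to 0.418).

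The other 3 tested messengers of complex I had smaller values. mt-Nd5 averaged 14188 ± 4841 CPM in KO and 9648 ± 2024 CPM in WT (log2 fold change 0.56), mt-Nd4 17626 ± 7746 in KO and 12730 ± 3302 in WT (0.47), and mt-Nd6 1636 ± 477 in KO and 1247 ± 199 in WT (0.39; SD, n = 5 each). mt-Nd4l was not tested. Of complex IV, mt-Co2, the subunit that takes electrons from cytochrome c, averaged 5633 ± 1256 CPM in KO and 3704 ± 846 CPM in WT (log2 fold change 0.60, SE 0.21, edgeR adjusted p = 0.295). mt-Co3 averaged 4975 ± 2135 CPM in KO and 3336 ± 1273 CPM in WT (0.58). mt-Co1 was at 41454, 40296, 59479, 32879 and 44753 CPM in KO and at 29469, 41151, 41541, 26866 and 45915 CPM in WT, with 1 KO library outside the WT range and a log2 fold change of 0.24 (SE 0.21, edgeR adjusted p = 0.810). Of complex V, mt-Atp8 had a log2 fold change of 0.59 and mt-Atp6 of 0.43. mt-Cytb averaged 14055 ± 4118 CPM in KO and 12937 ± 3914 CPM in WT. Without KO replicate 3 the log2 fold changes were 0.36 for mt-Nd5, 0.19 for mt-Nd4, 0.30 for mt-Co3, 0.11 for mt-Co1, 0.29 for mt-Atp8, 0.21 for mt-Atp6 and -0.055 for mt-Cytb.

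For dKO against KO, which asks how targeting HDAC4 as well alters the KO tissue, all 12 messengers had a negative log2 fold change, with a median of -0.63 against 0.02 over all genes, and none was called by edgeR. This comparison shares the KO libraries with the one above, including KO replicate 3. mt-Nd6 (MT:13552-14070, minus strand), the single messenger encoded on the opposite strand, had the smallest p. It was at 633, 998, 799, 1184 and 1107 CPM in the dKO libraries and at 2130, 1602, 2110, 1118 and 1218 CPM in the KO libraries. The dKO replicate 4 lay above KO replicate 4, and all other dKO libraries lay below every KO library. Its log2 fold change was -0.79 (SE 0.21, edgeR adjusted p = 0.331; over the alternatives 0.0430 with DESeq2 to 0.648).

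mt-Nd2 was at 1879, 5057, 3102, 3893 and 4003 CPM in dKO, and its log2 fold change against KO was -1.03 (SE 0.33, edgeR adjusted p = 0.568). mt-Nd5 averaged 8044 ± 1764 CPM in dKO and 14188 ± 4841 CPM in KO (-0.82 on the log2 scale, SE 0.24, edgeR adjusted p = 0.395). mt-Nd3 averaged 457 ± 169 CPM in dKO and 803 ± 495 CPM in KO (-0.81). The other values ran from -0.72 for mt-Nd4, through -0.68 for mt-Co3, -0.57 for mt-Cytb, -0.55 for mt-Atp6, -0.51 for mt-Atp8, -0.44 for mt-Co2 and -0.42 for mt-Co1, to -0.40 for mt-Nd1. Without KO replicate 3 they were -0.36 for mt-Nd3, -0.44 for mt-Nd4, -0.41 for mt-Co3, -0.34 for mt-Atp6, -0.21 for mt-Atp8 and -0.17 for mt-Nd1, and the other 6 messengers moved by less than 1.5 times.

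The values of mt-Nd1 in dKO rested on a pair of libraries. It was at 4327, 8696, 6800, 11058 and 11449 CPM in the dKO libraries, where replicates 4 and 5, labelled 1753 and 1753-2, were highest. Its log2 fold change for dKO against WT was 0.61 (SE 0.29, unadjusted p = 0.0472 and adjusted p = 0.340 by edgeR), the smallest p of the 15 there. Without 1753 and 1753-2 it was 0.26 for dKO against WT and -0.76 for dKO against KO, where -0.40 was found with them. For dKO against WT, 5 of the 12 messengers had a positive value and 7 a negative one, with a median of -0.11 against -0.01 over all genes. mt-Nd3 was at 0.40, mt-Nd2 at 0.22, mt-Co2 at 0.17 and mt-Atp8 at 0.08, and the lowest were mt-Cytb at -0.45 and mt-Nd6 at -0.40. Without 1753 and 1753-2, 2 of the 12 were positive (mt-Nd1 and mt-Nd2) and the median was -0.24; mt-Nd6 was at -0.62 and mt-Nd3 at -0.020.

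**Figure D3:**
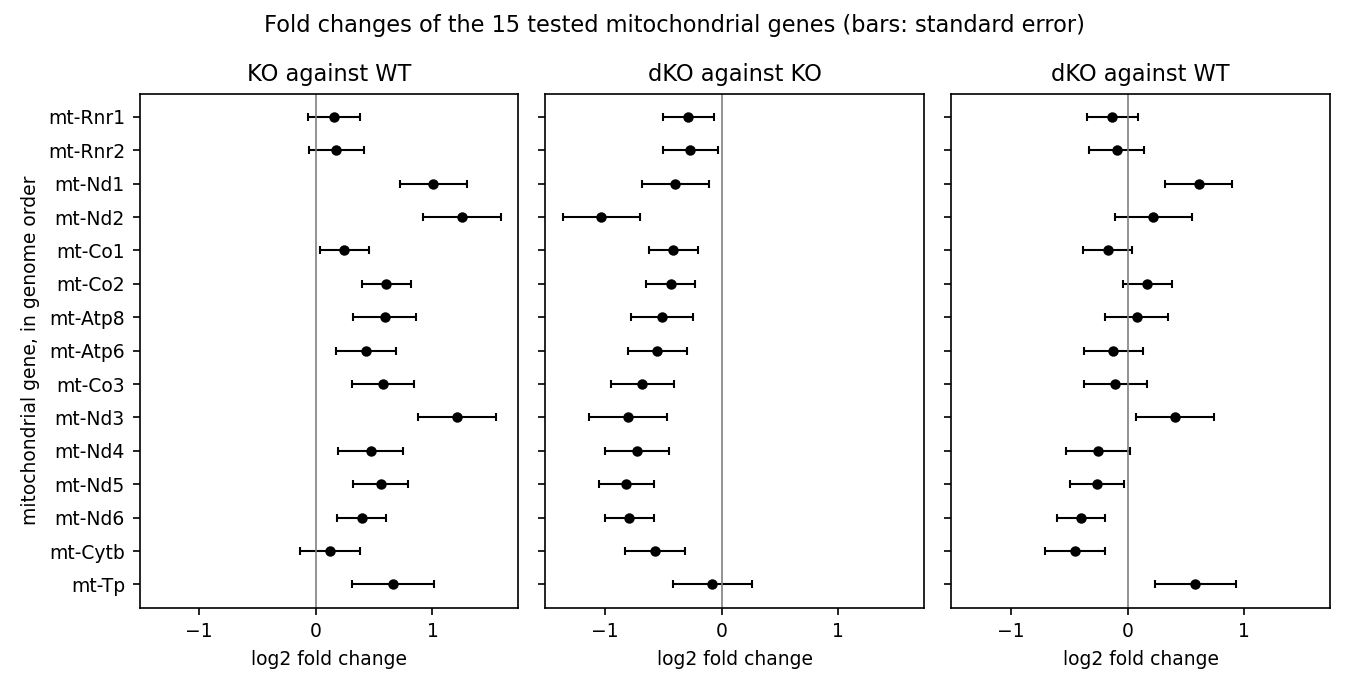
Log2 fold changes with their standard errors of the 15 tested mitochondrial genes, in genome order, with 1 panel per comparison (KO against WT, dKO against KO, then dKO against WT). All values are positive for KO against WT and negative for dKO against KO, and none was called by edgeR. The 2 sets of values share the KO libraries.

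Because the total of mitochondrial messengers varied from library to library, each messenger was also measured as a percent of all mitochondrial messenger counts in its library, which no scaling to other RNA can move. On that measure mt-Nd1 made up 8.40, 8.32, 9.54, 8.50 and 9.98% in the KO libraries and 6.21, 5.79, 5.49, 5.91 and 6.92% in the WT libraries. The lowest KO library was above the highest WT library. mt-Nd2 made up 5.70, 4.90, 6.97, 4.45 and 6.61% in KO and 3.73, 3.38, 2.74, 2.77 and 4.04% in WT, again with no overlap. mt-Cytb, in the other direction, made up 12.4, 11.7, 11.1, 11.4 and 10.9% in KO and 13.5, 16.6, 13.1, 12.96 and 14.3% in WT, with every KO library below every WT library.

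KO replicate 3, the highest in total, was second in its share of mt-Nd1 and highest in that of mt-Nd2. Of the 12 messengers, 3 did not overlap between KO and WT per messenger count. Of all genes scaled in the same way, 1.82% did not overlap (0.223% higher in KO, as mt-Nd1 and mt-Nd2 were, and 1.60% lower, as mt-Cytb was). The shares add up to a fixed total, so higher shares of mt-Nd1 and mt-Nd2 lower the others, including mt-Cytb, by construction. This scaling divides the messengers by their own sum and other genes by an outside total. The percents of all genes on it are therefore not a like comparison for the 12. In the edgeR fit with that scaling, none of the 12 was called for KO against WT, where 0.355% of all genes were: the log2 fold changes were 0.78 (SE 0.26, adjusted p = 0.209) for mt-Nd2, 0.68 (SE 0.28, adjusted p = 0.312) for mt-Nd3, 0.56 (SE 0.25, adjusted p = 0.338) for mt-Nd1 and -0.29 (SE 0.24, adjusted p = 0.444) for mt-Cytb. At an unadjusted p under 0.05 there were 3 of the 12, against 13.8% of all genes, and mt-Nd3 overlapped between the groups, with 0.42 to 0.90% in KO and 0.27 to 0.49% in WT. This scaling shifted the median of all genes to -0.41 for KO against WT.

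In dKO, mt-Nd1 made up 7.92, 8.50, 8.81, 12.6 and 12.4% of the messenger counts, above every WT library, and replicates 4 and 5 stood above the other 3. mt-Nd5 made up 10.1, 10.1, 9.62, 9.45 and 9.31% in dKO, 12.3, 11.3, 11.7, 10.3 and 11.6% in KO and 11.6, 10.6, 10.5, 10.7 and 10.1% in WT, so that every dKO library lay below every KO and every WT library, with 10.12% in the highest dKO and 10.14% in the lowest WT library. mt-Nd5 was the 1 of 12 without overlap for dKO against KO, where 4.65% of all genes had none: 4.64% were higher in dKO and 0.0165% lower, as mt-Nd5 was, on a scaling that moved the median of all genes to 0.54. mt-Nd1 and mt-Nd5 were the 2 of 12 without overlap for dKO against WT, where 1.01% of all genes had none (0.874% higher and 0.140% lower). The edgeR fit per messenger count called none of the 12 for dKO against KO or dKO against WT, against 0.190% and 0.313% of all genes; the lowest adjusted p was 0.207 for mt-Nd2 in the first and 0.321 for mt-Nd1 (log2 fold change 0.73, SE 0.25) in the second. At an unadjusted p under 0.05 there were 0 and 1 of the 12, the second being mt-Nd1, against 28.9% and 6.47% of all genes. As for KO against WT, the percents of all genes per messenger count are not a like comparison for the 12. mt-Co1 took 38.2 to 42.7% of the messenger counts in dKO, 32.3 to 40.7% in KO and 38.3 to 43.7% in WT.

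**Figure D4:**
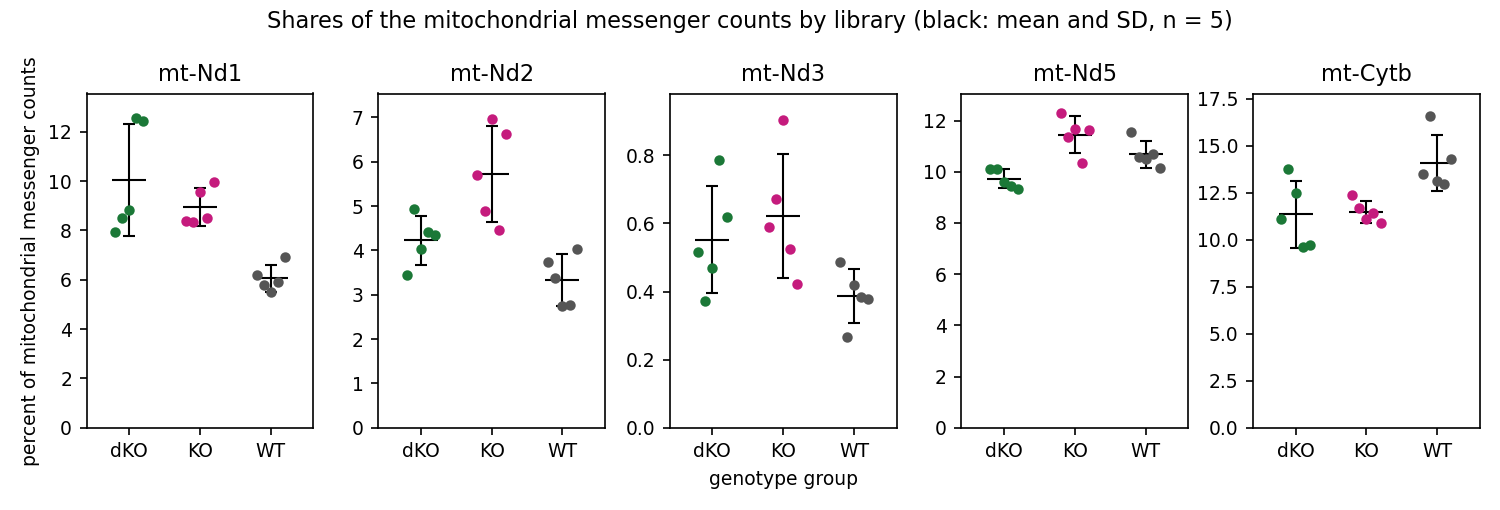
Percent of all mitochondrial messenger counts taken by mt-Nd1, mt-Nd2, mt-Nd3, mt-Nd5 and mt-Cytb, by genotype group. Each point is 1 library, and the black marks give the mean and SD of 5 libraries. Every KO point lies above every WT point for mt-Nd1 and mt-Nd2 and below every WT point for mt-Cytb, and every dKO point for mt-Nd1 lies above every WT point.

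The ratio of mt-Nd6 to mt-Cytb sets the messenger of the minus strand against the nearest messenger of the plus strand that does not overlap it. On the log2 scale it averaged -3.31 ± 0.40 in dKO, -3.11 ± 0.30 in KO and -3.33 ± 0.52 in WT (SD, n = 5 each). By exact two-sided permutation the differences were 0.23 for KO against WT (p = 0.413), -0.20 for dKO against KO (p = 0.389) and 0.03 for dKO against WT (p = 0.913), and all had an adjusted p of 0.913 over the 6 ratio tests.

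Most transfer RNAs had few or no counts. Of the 22, 15 had 0 counts in every library, and 6 more had at most 4 counts in any library. These genes are 59 to 75 bases long. mt-Tp was at 19.1, 38.8, 18.7, 42.1 and 35.8 CPM in the dKO libraries, at 22.6, 21.3, 66.3, 18.8 and 47.1 CPM in the KO libraries and at 18.8, 23.9, 21.8, 12.5 and 28.8 CPM in the WT libraries, from 18 to 282 counts per library. The groups overlapped, and the log2 fold change was 0.66 (SE 0.35) for KO against WT, -0.08 (SE 0.34) for dKO against KO and 0.58 (SE 0.35) for dKO against WT (edgeR adjusted p = 0.619, 0.979 and 0.460). mt-Tn, the asparagine transfer RNA, had 1, 0, 0, 0 and 3 counts in dKO, 4, 0, 4, 2 and 2 counts in KO and 1, 0, 2, 0 and 2 counts in WT, too few to compare. mt-Tc, the cysteine transfer RNA on the other side of a gap of 32 bases with no annotated gene, had 0 to 2 counts.

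Near-identical nuclear copies of mitochondrial genes were looked for among the annotated transcripts of GENCODE M21 by sequence search. For 5 messengers a nuclear transcript matched at least 99% of letters over at least 90% of the gene: mt-Atp6 and Gm10925 (678 of 678 aligned bases identical), mt-Co2 and Gm28661, mt-Co3 and Gm28437, mt-Nd3 and Gm28438 (1 mismatch in 345 aligned bases), and mt-Nd4l and Gm10222. All 5 copies lie on chromosome 1. mt-Nd4 matched Gm28439 over 63.6% of its length with no mismatch. mt-Nd1, mt-Nd2 and mt-Cytb had no copy that close: the nearest matched 84.0% of letters over 32.5% of mt-Nd1, 96.7% over 49.1% of mt-Nd2 and 92.9% over 99.8% of mt-Cytb. No nuclear transcript matched 17 of the 37 genes.

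Gm10925, annotated as a pseudogene, was counted beside mt-Atp6 in every library. It had 263 to 5022 counts per library, which were 20.3 to 26.0% of the summed counts of Gm10925 and mt-Atp6 in each library. Its log2 fold changes were 0.59 (KO against WT) and -0.60 (dKO against KO), beside 0.43 and -0.55 for mt-Atp6 in the same order. Counts of mt-Atp6, mt-Co2, mt-Co3, mt-Nd3, mt-Nd4 and mt-Nd4l are uncertain to the extent that reads were split with such copies or set aside, which was not tested.

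Nuclear genes that serve the mitochondrial genome were counted in 3 lists. Over all genes, edgeR called 0.569% for KO against WT, 0.0660% for dKO against KO and 0.544% for dKO against WT. In the same order, 9.21%, 6.49% and 14.4% had an unadjusted p under 0.05 by edgeR. Of 40 tested genes of mitochondrial transcription, RNA processing, replication and translation, 0 were called by edgeR in any comparison (unadjusted p under 0.05 for 7 in KO against WT, 4 in dKO against KO and 8 in dKO against WT), with median log2 fold changes of 0.18, 0.02 and 0.10. Polrmt, the RNA polymerase of mitochondria, averaged 17.3 ± 2.79 CPM in dKO, 13.1 ± 4.92 CPM in KO and 13.6 ± 5.71 CPM in WT. Tfam, which packs and helps transcribe mitochondrial DNA, averaged 35.5 ± 10.7 CPM in dKO, 34.8 ± 5.37 CPM in KO and 32.8 ± 7.33 CPM in WT. Lrpprc, which stabilizes mitochondrial messengers, averaged 99.97 ± 26.9 CPM in dKO, 101.2 ± 12.3 CPM in KO and 84.1 ± 15.5 CPM in WT (SD, n = 5 each). None of the 3 was called. The smallest p belonged to Ptcd3 and Tfb2m for KO against WT (log2 fold change 0.44 and 0.43; edgeR adjusted p = 0.292 and 0.342), to Peo1 and Trnt1 for dKO against KO (-0.58 and -0.38; both 0.752) and to Hsd17b10 and Mrpl12 for dKO against WT (0.61 and 1.20; 0.145 and 0.157).

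Few nuclear-encoded subunits of the respiratory chain passed the adjusted threshold, though many had a low unadjusted p for dKO against WT. Of 72 tested, edgeR called 2 in KO against WT and 2 in dKO against WT. In both cases these were Cox7a1 and Cox8b, tissue-specific subunits of complex IV, and both rose. Both genes are also in the list of brown and beige adipocyte markers, so their calls count in both lists. For dKO against KO 0 were called. Over all genes, 0.569%, 0.544% and 0.0660% were called in that order. By edgeR, 12, 36 and 3 of the 72 had an unadjusted p under 0.05. Over all genes, 9.21%, 14.4% and 6.49% did. Positive values were found in 70 of the 72 for KO against WT, in 61 for dKO against KO and in 72 for dKO against WT, with medians of 0.39, 0.18 and 0.58. The mitochondrial messengers had medians of 0.57, -0.63 and -0.11 in these comparisons. Summed, the nuclear subunits were at 6427, 6839, 6131, 16037 and 15437 CPM in dKO, where replicates 4 and 5 (1753 and 1753-2) stood apart, at 7159 to 10417 CPM in KO and at 5609 to 7474 CPM in WT. The other 3 dKO libraries lay inside the WT range. Without 1753 and 1753-2 the median log2 fold change of the 72 was -0.065 for dKO against WT, with 25 positive and 0 called by edgeR (3 at an unadjusted p under 0.05), and -0.51 for dKO against KO, with 0 positive and 0 called (50 at an unadjusted p under 0.05). For KO against WT, in that fit, edgeR called 8 of the 72, all higher, and the median of the 72 was 0.40. Over all genes, that fit called 253 for KO against WT, 19 for dKO against KO and 29 for dKO against WT. The main fit called 69, 8 and 66 in the same order. The change from 2 to 8 therefore came with more calls over all genes. The 3 and 50 at an unadjusted p under 0.05 have no count over all genes in that fit beside them. The mitochondrial messengers of the 1753 and 1753-2 libraries, at 88103 and 92193 CPM, lay inside the range of the other dKO libraries.

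Of 11 tested regulators of mitochondrial biogenesis, 2 rose in KO against WT: Ppargc1a, a coactivator of mitochondrial gene programmes, at 105.3 ± 36.1 CPM in KO and 40.6 ± 7.30 CPM in WT (1.39 on the log2 scale, SE 0.25, edgeR adjusted p = 0.0102), and Esrrg, a nuclear receptor that works with it, at 24.8 ± 5.87 CPM in KO and 9.37 ± 4.54 CPM in WT (1.39, SE 0.26, adjusted p = 0.0175). Ppargc1a also rose in dKO against WT (96.0 ± 28.3 CPM in dKO; 1.27, SE 0.25, edgeR adjusted p = 0.0252). For dKO against KO its log2 fold change was -0.13 (edgeR adjusted p = 0.941) and that of Esrrg -0.998 (0.275), so that 0 of the 11 were called and 1 had an unadjusted p under 0.05.

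Markers of other cells in the tissue varied beside these results. In bulk tissue, fewer cells of a type and less RNA per cell cannot be told apart. Of 18 skeletal muscle markers, 13 were tested and 0 called by edgeR in any comparison, with 0 at an unadjusted p under 0.05; Tnnc2 and Tnnc1 had 0 counts everywhere. The muscle markers summed to 534, 916, 72.8, 201 and 415 CPM in dKO, 355, 164, 6470, 723 and 494 CPM in KO and 2408, 138, 191, 114 and 44.6 CPM in WT. KO replicate 3, the library with the most mitochondrial messenger RNA, also had the most muscle marker RNA. WT replicate 1, second in muscle markers, was at 76965 CPM of mitochondrial messengers, below the WT mean. The part of muscle RNA in the messenger values of these libraries was not tested. With the mean muscle level as a covariate, the median messenger log2 fold change was 0.49 for KO against WT, -0.60 for dKO against KO and -0.13 for dKO against WT. Without KO replicate 3 it was 0.30 in the KO to WT comparison and -0.38 in the dKO to KO comparison, and that of mt-Nd2, mt-Nd3 and mt-Nd1 for KO against WT was 0.95, 0.76 and 0.78.

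Brown and beige adipocyte markers summed to 368 to 616 CPM in dKO, beside the KO and WT ranges given above. By edgeR, 5 of 8 tested rose in KO against WT and 5 in dKO against WT, while 1, Ucp1, fell in dKO against KO. Over all genes, 0.569%, 0.544% and 0.0660% were called in that order. Macrophage markers, 10 of 10 detected, summed to 1085 to 1421 CPM in dKO, 1169 to 1593 CPM in KO and 1450 to 2840 CPM in WT. By edgeR 0 were called, with 7 at an unadjusted p under 0.05 for KO against WT, 1 for dKO against KO and 8 for dKO against WT. Over all genes, 9.21%, 6.49% and 14.4% had an unadjusted p under 0.05 by edgeR in the same order. Lymphocyte markers summed to 638 to 1854 CPM in dKO, 1394 to 1797 CPM in KO and 1118 to 2279 CPM in WT, and endothelial markers to 420 to 549 CPM in dKO, 476 to 503 CPM in KO and 369 to 585 CPM in WT. By edgeR 0 of either list were called, and at most 1 had an unadjusted p under 0.05 in any comparison. Epithelial markers (Krt5, Krt14, Krt8, Krt18, Epcam and Cdh1) were low, summing to 4.91 to 71.8 CPM in dKO, 1.22 to 7.30 CPM in KO and 3.63 to 65.4 CPM in WT. The part of these cell types, or of muscle, in the mitochondrial values was not tested.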

How the data were processed

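RNA of inguinal fat from 15 mice was sequenced from NuGEN libraries, as the labels' protocols state. Per the submitters' processing notes the genome build was mm9 and the tools were Subread, featureCounts, FastQC and edgeR, with no versions. The deposited table gives raw counts per gene and library, and gene lengths, per the file headers. The 45 other per-library columns were not used.

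Groups were read from the titles, which name mice but number no replicates, so mice could not be paired. The mitochondrial genes and the other gene lists were chosen with earlier results of these data known, and genes were named by a rule: both ribosomal RNAs, the messengers summed, the messengers highest and lowest per length or with the smallest p, mt-Nd6 and the 2 most counted transfer RNAs in every library, the rest by means or ranges, and from each list up to 6 called genes or the 2 with the smallest p, with Polrmt, Tfam, Lrpprc and Ppargc1a always.

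The analysis used R 4.3.3 and edgeR 4.0.16. The expression filter (minimum count 10, minimum total 15) retained 12124 genes. Library size was the count outside mt-Rnr1 and mt-Rnr2 times a TMM factor computed without them. All 15 libraries were fitted together by robust quasi-likelihood, with group as the factor (12 residual degrees of freedom). Tests were two-sided, Benjamini-Hochberg adjustment ran over all genes tested, and adjusted p-values under 0.05 were calls. A standard error is the log2 fold change divided by the square root of F. The fit was also run on simulated counts, whose outcome is not given here and is not used as support. Nuclear copies were sought with blastn 2.17.0. Alternatives were other scalings, no filter, DESeq2 1.42.0, voom in limma 3.58.1, the 2 groups alone, the mice 1753 and 1753-2 summed or left out, a muscle covariate and each library left out in turn. Depth was lowest in dKO replicate 3, so its low counts are the least precise. Intervals and tests cover no error from reads shared between genes.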

Additional observations from a re-analysis of the deposited data

Results flagged for a closer look

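Of 60 sets of 5 libraries examined, 4 held a library far from the rest of its group by Dixon's gap test. Chance gives 1 in 20 where sets are independent. These sets share libraries and scaling, so their number cannot be set against that rate.

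In KO, replicate 3 stood above the other 4 libraries for 3 genes. mt-Nd3 was at 1664 CPM there and at 423 to 704 CPM in the other KO libraries. mt-Atp8 was at 454 CPM there and at 190 to 225 CPM in the others. mt-Rnr2 was at 818598 CPM there and at 407145 to 517941 CPM in the others. The same library had the highest summed skeletal muscle markers, 6470 CPM, and the part of muscle RNA in these 3 values was not tested library by library.

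In dKO, replicate 3 had a log2 ratio of mt-Rnr1 to mt-Rnr2 of -0.80, and the other 4 dKO libraries had -1.20 to -1.13.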

How the results depend on the processing

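No paired analysis was possible because the labels give mouse labels and no replicate numbers shared between groups.

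The count of mitochondrial genes called was 0 in each comparison with edgeR. It was 3 for KO against WT (mt-Nd1, mt-Nd2 and mt-Nd3, all higher) and 1 for dKO against KO (mt-Nd6, lower) with DESeq2. It was 1 for KO against WT (mt-Nd1) with voom and with only the 2 groups fitted. It was 0 under every other alternative run, with each of the 15 libraries left out included.

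Of 1134 fold changes of the 14 tested messenger and ribosomal genes over 27 alternatives, 1098 kept their direction and their side of the threshold, 6 passed it and 30 changed sign, all of them values that had not passed. Scaling to the mitochondrial messenger counts, which sets their sum level by construction, gave 18 of these. For KO against WT they were mt-Atp6 -0.0086, mt-Nd6 -0.070, mt-Nd4 -0.0006, mt-Co1 -0.17, mt-Cytb -0.29, mt-Rnr1 -0.26 and mt-Rnr2 -0.26. For dKO against KO they were mt-Nd1 0.17, mt-Atp8 0.069, mt-Co2 0.11, mt-Atp6 0.028, mt-Co1 0.13, mt-Rnr1 0.26 and mt-Rnr2 0.30. For dKO against WT they were mt-Co3 0.064, mt-Atp6 0.020, mt-Rnr1 0.0022 and mt-Rnr2 0.041. This scaling moved the median of all genes to -0.41, 0.54 and 0.12, and no TMM moved it to -0.10 for KO against WT. Without the 1753 and 1753-2 libraries, dKO against WT was -0.020 for mt-Nd3, -0.070 for mt-Atp8 and -0.075 for mt-Co2. With 1 library left out at a time the values that changed sign ran from -0.080 to 0.19 for mt-Atp8, -0.23 to 0.14 for mt-Co3 and -0.27 to 0.0061 for mt-Atp6 in dKO against WT, and from -0.055 to 0.25 for mt-Cytb and -0.035 to 0.27 for mt-Rnr2 in KO against WT; the cause was not tested.

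The log2 ratio of mt-Nd6 to mt-Cytb for dKO against WT (0.03) was -0.072 with 1753 and 1753-2 summed, -0.23 without them, -0.13 by group medians and -0.13 to 0.15 with 1 library left out. That of mt-Rnr1 to mt-Rnr2 was 0.0051 for dKO against WT without 1753 and 1753-2, and -0.043 to 0.077 for KO against WT with 1 library left out. No ratio passed under any alternative.

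All genes called for KO against WT (69) were 175 with DESeq2, 273 with voom, 222 with the 2 groups alone, 253 without 1753 and 1753-2, 43 with the muscle covariate and 32 to 88 with 1 library left out, the lowest without KO replicate 1. For dKO against KO (8) they were 37 with DESeq2, 19 without a filter or without 1753 and 1753-2, 4 with these summed, 5 with the 2 groups alone and 4 to 13 with 1 library left out. For dKO against WT (66) they were 234 with DESeq2, 28 with voom, 32 with the 2 groups alone, 27 with 1753 and 1753-2 summed, 29 without them, and 26 to 239 with 1 library left out, the highest without dKO replicate 1. Per messenger count they were 43, 23 and 38. Genes under about 10 counts, mt-Nd4l and 21 transfer RNAs, had too few counts to compare. Whether depth, gene length or the assignment of reads limited them was not tested.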
